A study of Mus musculus with 36 samples.

Results

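The members are the genes whose products form the Mediator complex, RNA polymerase II and the general initiation factors TFIIA, TFIIB, TFIIE, TFIIF and TFIIH. They were chosen by symbol alone, as all symbols of the deposited tables that begin with Med and a digit, Polr2 and a letter from a to m, or Gtf2 and one of the letters a, b, e, f and h. The rule found 57 of 24411 symbols: 30 Mediator genes, 13 RNA polymerase II genes, 13 general factor genes and Med9os, an antisense transcript at the Med9 locus that is not a Mediator subunit. The rule uses symbols only, though it was set with earlier results of these data known.

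The RNA came from mouse bone marrow HSPCs (haematopoietic stem and progenitor cells) with conditional knockout of Taf1, labelled Taf1 KO, and from control HSPCs, labelled WT. Taf1 is the largest subunit of TFIID, which is not among the members and which places TBP on core promoters. Cells were sampled on day 0, after 3 days of culture with stem cell factor and IL-3, and after division into a macrophage course (GM-CSF and M-CSF to day 5, M-CSF alone to day 7) and a granulocyte course (stem cell factor, IL-3 and G-CSF to day 5, G-CSF alone to day 7), all cytokines at 50 ng/ml. Each of the 12 groups, knockout and control at 6 stages, held 3 libraries, 36 in all. How and where Taf1 was deleted, the age of the mice and whether replicates were separate mice are not stated in the labels. The p-values therefore measure the spread between these libraries, which may be technical.

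As background, transcription by RNA polymerase II starts when TFIID with TFIIA and TFIIB marks a promoter, the polymerase is brought in with TFIIF, and TFIIE and TFIIH join to open the DNA and phosphorylate the polymerase's C-terminal domain. Mediator bridges DNA-bound activators and this complex. Its head and middle modules contact the polymerase, the tail meets activators, Med14 is the scaffold that joins them, and a separable kinase module of Med12, Med13, cyclin C and Cdk8 or their paralogues can block the polymerase contact. In haematopoietic cells the kinase module subunits and Med1 are known for roles in blood cell formation.

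Values are TPM, a share of all transcripts that is scaled by gene length, so levels may be compared between genes. Differences are log2(TPM + 1) of knockout minus control, or of the later minus the earlier day, each ± SE from limma, and a difference passed the test where the Benjamini-Hochberg adjusted p over all tested genes was under 0.05. On this scale the change of a low gene is understated. Taf1 itself lay at 8.5, 8.98 and 9.06 TPM in knockout and at 14.54, 14.11 and 13.56 TPM in control cells on day 0. Its knockout groups lay below control without overlap at every stage but day 3, where the knockout libraries held 8.66, 10.29 and 9.06 TPM and the control libraries 9.62, 10.9 and 11.45 TPM, which differed by -0.17 ± 0.08 (limma adjusted p = 0.0711, not past the threshold). Averaged over the 4 days of the macrophage course Taf1 fell by 0.64 ± 0.04 (limma adjusted p = 6.27e-11). As the deleted part is not given, these values do not check how complete the deletion was. Replicate libraries correlated at r of 0.973 to 0.997 (Pearson, across genes of 1 TPM or more in at least 3 libraries, which are not independent replicates).

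Several libraries stood apart. Polr2a was over 1.5 times both other libraries of its group in knockout day 0 replicate 2, knockout day 5 granulocyte replicate 3 and control day 5 macrophage replicate 3. Srrm2, a large splicing gene picked after its values were seen, also stood out there, at 71.24, 50.13 and 49.49 TPM. Knockout replicates 2 and 3 at day 7 carried 4.14% and 4.66% of their TPM on the structural RNA genes Rpph1 and Rmrp in the macrophage course and 2.29% and 2.34% in the granulocyte course. The other day 7 libraries carried 7% to 10.6%. Control day 5 replicate 1 carried 4.93% (macrophage course) and 5.49% (granulocyte course) on the neutrophil genes S100a8 and S100a9, where the other day 5 controls had 13.9% to 14.5%. The part of these differences in the results was not tested.

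The cultures also differed in makeup between genotypes, and in bulk RNA fewer cells of a type and less RNA per cell cannot be told apart. The summed level of 9 neutrophil markers on day 3 ranged from 127900 to 142400 TPM in knockout and from 74400 to 90200 TPM in control libraries. Already on day 0 it was apart, at 14330 to 32680 TPM in knockout and 2910 to 8196 TPM in control libraries. On day 5 of the macrophage course it ranged from 186400 to 244900 TPM in knockout and from 55050 to 160900 TPM in control libraries. The summed level of 10 macrophage markers on day 3 ranged from 164 to 271.3 TPM in knockout and from 683 to 899.6 TPM in control libraries. On day 0 it ranged from 59.21 to 68.25 TPM in knockout and from 52.19 to 57.21 TPM in control libraries. On day 7 of the macrophage course the macrophage markers summed to 1810 to 2011 TPM in knockout and 1696 to 2586 TPM in control libraries, beside neutrophil markers of 28070 to 41750 TPM in knockout and 36410 to 72820 TPM in control libraries, so these cultures still held transcripts of the neutrophil list. There too S100a8 and S100a9 made up most of the sum, at 2.68% to 3.94% of TPM in knockout and 3.31% to 6.46% in control libraries. The 5 megakaryocyte markers on day 7 of the macrophage course summed to 1813 to 2260 TPM in knockout and 413.6 to 435 TPM in control libraries. On day 3 the direction was the reverse, at 272.6 to 602.8 TPM in knockout and 1335 to 2311 TPM in control libraries. The 5 progenitor markers, Kit, Cd34, Flt3, Meis1 and Gata2, were higher in knockout libraries without overlap at every stage from day 3 and overlapped on day 0. They summed to 136.7 to 176.4 TPM in knockout and 99.27 to 136.2 TPM in control libraries on day 3. On day 5 they summed to 41.82 to 50.99 TPM in knockout and 23.1 to 36.55 TPM in control libraries of the macrophage course, and to 131.4 to 164.6 TPM in knockout and 58.38 to 62.16 TPM in control libraries of the granulocyte course. On day 7 they summed to 47.24 to 53.28 TPM in knockout and 20.98 to 25.12 TPM in control libraries of the macrophage course, and to 98.06 to 135.7 TPM in knockout and 29.93 to 42.51 TPM in control libraries of the granulocyte course. Most members were also lower on day 7 than on day 0. The 3 lymphoid markers summed to at most 0.54 TPM in the knockout and 0.77 TPM in the control libraries of day 0. The part of cell makeup in the results on the members was not tested.

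The promoters of members that carry the results are shown because Taf1 belongs to the complex that reads this stretch. A RefSeq promoter window (GRCm38.p6, the build of the mm10 name) of 250 bases before to 50 after the start was found for 49 of 57 members. Capitals mark exact matches, on either strand, to 6 motifs: the TATA box TATAAA, the ETS motif CCGGAAG, the NRF1 motif (GCGC, any base, TGCGC), the YY1 motif AAGATGGC, the GC box GGGCGG and the CCAAT box CCAAT. Polr2a, encoding the catalytic largest subunit, is at chr11:69758584-69758883 on the minus strand. Polr2f, a shared small subunit, is at chr15:79141075-79141374 on the plus strand. Polr2l, also shared, is at chr7:141475104-141475403 on the minus strand. Gtf2b, encoding TFIIB, is at chr3:142764997-142765296 on the plus strand. Med11, of the Mediator head, is at chr11:70451668-70451967 on the plus strand.
Polr2a: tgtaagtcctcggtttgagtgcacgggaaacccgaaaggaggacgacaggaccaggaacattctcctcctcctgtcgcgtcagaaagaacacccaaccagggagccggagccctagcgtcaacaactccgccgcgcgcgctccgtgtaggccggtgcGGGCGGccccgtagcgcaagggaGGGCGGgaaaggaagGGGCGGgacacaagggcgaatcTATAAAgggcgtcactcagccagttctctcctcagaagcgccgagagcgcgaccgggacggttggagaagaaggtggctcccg
Polr2f: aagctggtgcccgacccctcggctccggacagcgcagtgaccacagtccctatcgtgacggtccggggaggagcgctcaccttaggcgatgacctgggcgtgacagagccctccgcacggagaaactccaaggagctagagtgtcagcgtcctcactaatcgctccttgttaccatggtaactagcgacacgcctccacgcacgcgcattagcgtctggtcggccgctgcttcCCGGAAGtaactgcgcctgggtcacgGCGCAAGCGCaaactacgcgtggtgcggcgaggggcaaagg
Polr2l: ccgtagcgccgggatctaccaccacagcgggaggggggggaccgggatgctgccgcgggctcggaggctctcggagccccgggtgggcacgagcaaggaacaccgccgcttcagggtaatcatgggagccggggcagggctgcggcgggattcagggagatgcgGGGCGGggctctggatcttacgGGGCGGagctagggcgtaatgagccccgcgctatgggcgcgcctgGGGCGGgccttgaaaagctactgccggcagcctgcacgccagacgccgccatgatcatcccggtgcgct
Gtf2b: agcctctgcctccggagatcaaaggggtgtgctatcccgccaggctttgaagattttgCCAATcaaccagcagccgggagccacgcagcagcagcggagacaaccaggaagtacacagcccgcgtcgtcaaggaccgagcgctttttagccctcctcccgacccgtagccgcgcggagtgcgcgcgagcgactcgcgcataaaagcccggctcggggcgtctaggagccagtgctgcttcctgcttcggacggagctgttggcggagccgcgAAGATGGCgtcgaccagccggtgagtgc
Med11: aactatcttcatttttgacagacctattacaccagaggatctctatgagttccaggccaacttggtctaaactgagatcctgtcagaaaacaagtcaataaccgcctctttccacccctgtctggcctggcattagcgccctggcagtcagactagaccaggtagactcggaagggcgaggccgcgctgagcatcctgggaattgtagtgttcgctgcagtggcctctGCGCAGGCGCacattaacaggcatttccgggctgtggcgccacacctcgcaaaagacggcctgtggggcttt

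The Polr2a window holds TATAAA with its first base 33 bases before the start, the place of a classical TATA box, and 3 GC boxes upstream of it. The Polr2f window holds an ETS and an NRF1 match, the Polr2l window 3 GC boxes, and the Med11 window an NRF1 match 22 bases before the start. The Gtf2b window holds the YY1 match 23 bases into the transcribed part. TATAAA occurred in the windows of 7 of 49 members (14.3%) and in those of 15.7% of all 27025 genes with a window. The ETS motif occurred in 15 members (30.6%) and 9.93% of all genes, the NRF1 motif in 10 members (20.4%) and 5.19%, and the YY1 motif in 3 members (6.1%) and 3.19%. The GC box occurred in 32 members (65.3%) and 38.2% of all genes, and the CCAAT box in 17 members (34.7%) and 41.1%. Polr2a, higher in knockout cells, and Med16, lower, both hold TATAAA, but that of Med16 starts 231 bases before the start, far from the place of a TATA box. Polr2b and Polr2f, higher, and Med11, lower, share the NRF1 motif. A match is a run of letters and says nothing of what binds there.

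Most members that changed in knockout cells were higher. The rises were most numerous on day 3, and on unscaled TPM next on day 7, an order that median-of-ratios scaling did not keep (16 and 17 higher on day 7 of the macrophage and granulocyte courses, beside 21 and 18 on day 5). Of the 56 members tested (Gtf2a1l, listed at 0 in nearly all libraries and at most 0.03 TPM, did not pass the filter of 1 TPM in 3 libraries), 41 were higher at 1 or more of the 6 stages and lower at none, 5 were lower at 1 or more and higher at none, 7 were called in both directions at different stages, and 3 (Gtf2h2, Med6 and Med9os) passed at none. Polr2b, the second largest subunit, was higher at all 6 stages and Med11 lower at all 6. Polr2a, Polr2f, Polr2l, Gtf2a1 and Gtf2h3 were higher at 5 stages, and Med16 was lower at 5. Single stages had 23.3% to 53.2% of all tested genes called. The share of all genes called at 1 or more stages was not computed, so these counts over stages are a description.

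**Figure D1:**
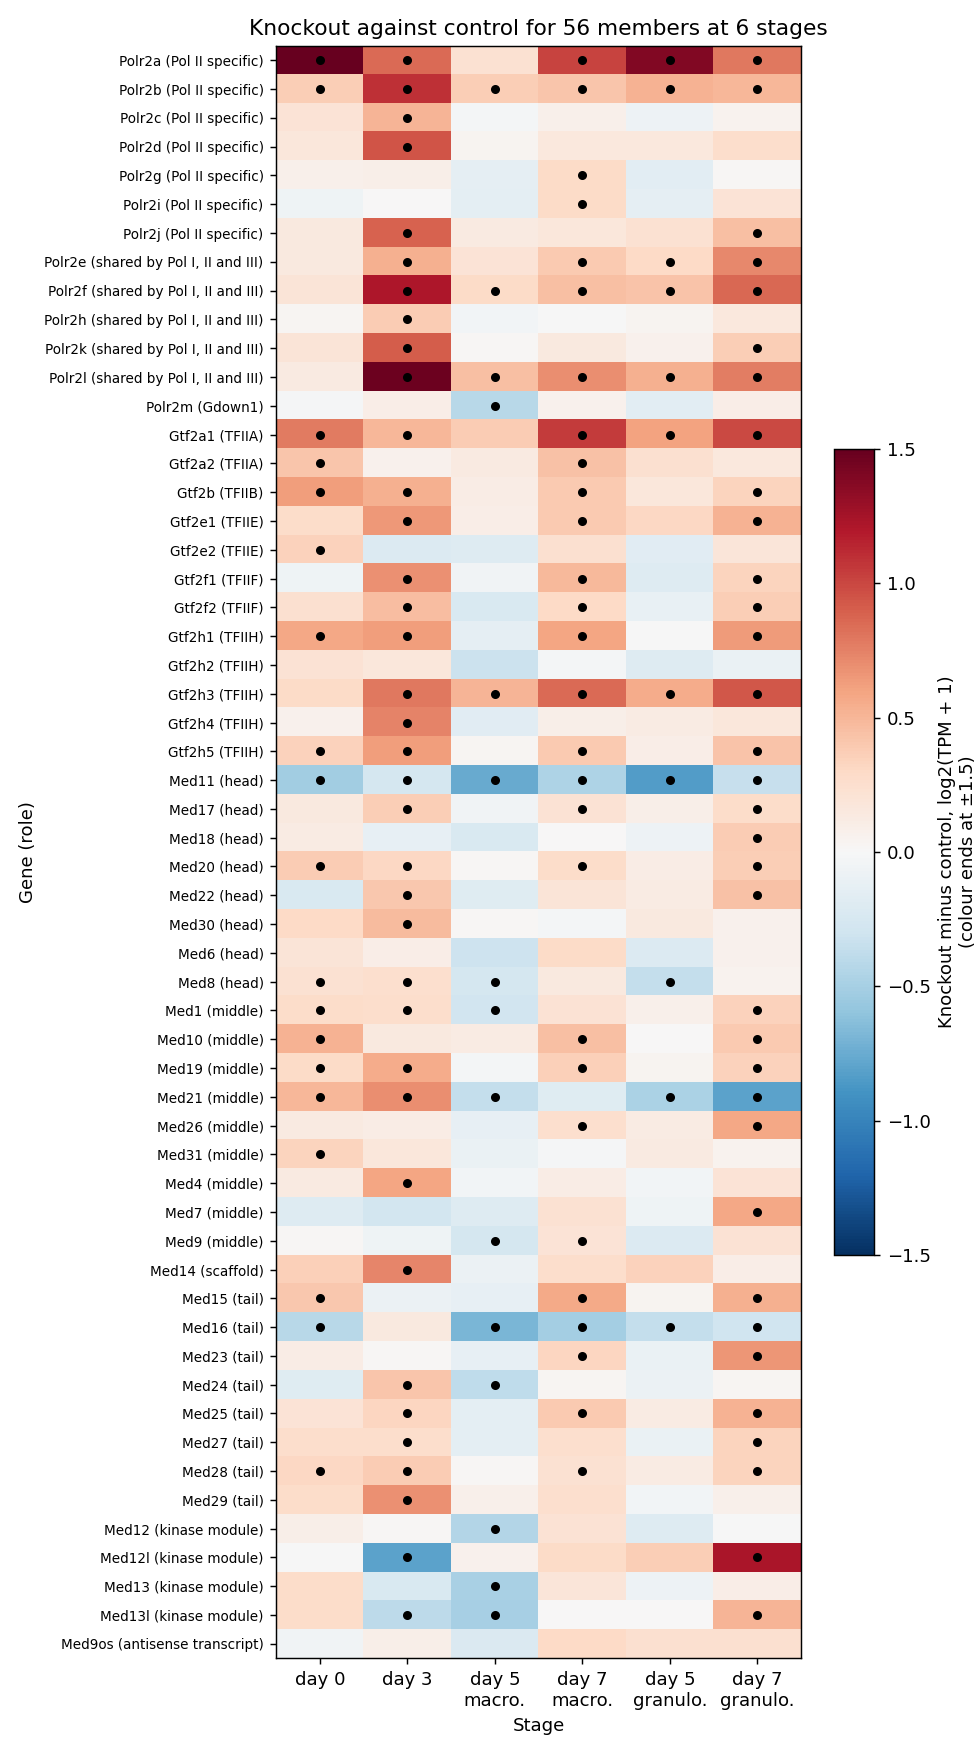
Knockout minus control differences in log2(TPM + 1) for 56 members (rows, ordered by role) at 6 stages (columns), with red for higher and blue for lower in knockout cells, and black points where the limma adjusted p was under 0.05. The rows of Polr2b and Med11 carry a point at all 6 stages, in red and in blue, and the day 5 columns hold few red points.

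On day 0, 17 members were higher and 2 lower in knockout cells, against 23.3% of all 11953 tested genes called in either direction (13.1% higher, 10.2% lower), and the member median was 0.21, beside 0.06 over all genes. On day 3, 34 were higher and 3 lower, against 53.2% of all genes (26.5% higher, 26.7% lower), with a median of 0.38 beside -0.01. On day 7, 26 were higher and 2 lower in the macrophage course (27.4% and 12.5% of all genes, 39.9% in all, with a median of 0.25 beside 0.12), and 31 were higher and 3 lower in the granulocyte course (32.1% and 12% of all genes, 44.1% in all, with a median of 0.33 beside 0.17). The shares of members called, 33.9% on day 0, 66.1% on day 3 and 50% and 60.7% on day 7, were above these backgrounds. On day 5 of both courses the share of members called on unscaled TPM was below that of all genes. Counts on day 0 rested on single libraries, since without control replicate 3 only 7 members passed, and without knockout replicate 1 only 11. The day 7 macrophage count was 18 (16 higher, 2 lower) without structural RNA and histone genes. The day 7 granulocyte count was 20 without control replicate 1 and 22 without knockout replicate 2. Without knockout replicates 2 and 3 together, which leaves 1 knockout library assumed to vary like the other groups, 5 members passed on day 7 of the macrophage course and 8 on that of the granulocyte course.

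On day 5 more members were lower than higher in the macrophage course. There 4 members were higher and 11 lower (5.11% and 37.9% of all genes, 43% in all), with a member median of -0.11 beside -0.23 over all genes. Of the falls, 10 were Mediator genes, 33.3% of the 30 and below the 37.9% of all genes. The remaining one was Polr2m, encoding Gdown1, a polymerase-associated protein that hinders TFIIF binding, at -0.42. In the granulocyte course 7 members were higher and 4 lower (9.2% and 22.8% of all genes, 32% in all), with medians of 0.04 and -0.09, and the 4 falls were all of Mediator. These directions depend on the scale. Dividing TPM by median-of-ratios size factors moved the median of all genes from -0.23 to -0.02 on day 5 of the macrophage course, and the split became 21 higher and 2 lower. It became 18 higher and 4 lower on day 5 of the granulocyte course, 15 and 4 on day 0 and 17 and 5 on day 7 of the granulocyte course. On unscaled TPM the member median was above that of all genes at each of the 6 stages. Of the 11 falls on day 5 of the macrophage course, those of Med11 (-0.51) and Med16 (-0.46) passed with this scaling. Polr2m (-0.16, adjusted p = 0.0632), Med12 (-0.21, 0.0907) and Med13 (-0.48 unscaled, -0.26 scaled, 0.137) did not, and neither did the other 6. The 4 falls of the granulocyte course passed with it, at -0.75 (Med11), -0.27 (Med16), -0.39 (Med21) and -0.27 (Med8).

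Most RNA polymerase II genes were higher in knockout cells. Averaged over the 4 days of a course, 9 of 13 polymerase genes were higher and 0 lower in the macrophage course, and 10 higher and 0 lower in the granulocyte course, beside 60.3% of all genes called in the macrophage course (27.9% higher, 32.4% lower) and 59.1% in the granulocyte course (33% higher, 26.1% lower). At an unadjusted p under 0.05 limma also gave 0 lower in both. The median differences were 0.32 and 0.38, beside -0.02 and 0.03 over all genes. The only negative average among them was that of Polr2m in the macrophage course, -0.07 (unadjusted p = 0.178).

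Polr2a had 34.68, 88.2 and 31.58 TPM in knockout cells on day 0, against 16.57, 13.74 and 11.01 TPM in control cells. On day 3 it had 14.35, 15.6 and 17.32 TPM in knockout and 7.97, 7.92 and 9.05 TPM in control cells. On day 7 it had 22.87, 28.19 and 25.72 TPM in knockout and 11.65, 12.2 and 12.57 TPM in control cells of the macrophage course. The groups did not overlap at any of these stages, and knockout replicate 2 of day 0 stood far above its group. In the granulocyte course Polr2a had 16.05, 24.35 and 43.44 TPM in knockout and 10.28, 8.29 and 9.26 TPM in control cells on day 5, and 16.16, 15.21 and 17.5 TPM in knockout and 10.36, 8.83 and 7.97 TPM in control cells on day 7. Only on day 5 of the macrophage course did the groups overlap, with 12.87, 15 and 19.76 TPM in knockout and 9.86, 9.83 and 23.25 TPM in control cells. The average difference was 0.94 ± 0.15 in the macrophage course (limma adjusted p = 1.75e-05) and 1.18 ± 0.15 in the granulocyte course (9.21e-07), the largest of any member in both. The day 3 difference of 0.85 ± 0.30 (0.0218) missed the threshold without control replicate 1 or 2 or knockout replicate 3 (adjusted p of 0.0548 to 0.0684). That of day 7 in the granulocyte course, 0.79 ± 0.29 (0.0353), missed it without any 1 of its 6 libraries (0.0508 to 0.1). The day 5 macrophage difference was 0.23 ± 0.30 (0.552). The 3 libraries of high Polr2a were picked by Polr2a itself, so the values without them are a description with no test. They were 1.22 on day 0 beside 1.69 with all libraries, 1.02 beside 1.39 on day 5 of the granulocyte course, 0.62 on day 5 of the macrophage course, and 0.925 and 0.97 for the macrophage and granulocyte averages.

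The other subunits that the polymerase does not share are Polr2b, which forms the active centre with Polr2a, Polr2c and Polr2j of the assembly platform, Polr2d and Polr2g of the stalk, and Polr2i. Polr2b had 66.32, 80.22 and 75.46 TPM in knockout and 27.78, 37.93 and 37.36 TPM in control cells on day 3, and 61.32, 62.17 and 66.37 TPM in knockout and 46.2, 46.83 and 48.76 TPM in control cells on day 7 of the macrophage course. The knockout libraries lay above all control libraries at each of the 6 stages. Its average difference was 0.56 ± 0.06 in the macrophage course (limma adjusted p = 9.54e-08) and 0.62 ± 0.06 in the granulocyte course (3.31e-08). Single stages were less firm: the day 0 difference of 0.37 missed the threshold without control replicate 2 or 3 or knockout replicate 1 or 3 (adjusted p of 0.0568 to 0.111), and the day 5 macrophage difference of 0.37 without control replicate 1 (0.22, 0.118). On day 3 Polr2d differed by 0.94, Polr2j by 0.89 and Polr2c by 0.51, all past the threshold, while Polr2g (0.08) and Polr2i (0.01) were not. Polr2g and Polr2i passed only on day 7 of the macrophage course, each at 0.29.

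Polr2e, Polr2f, Polr2h, Polr2k and Polr2l encode the 5 subunits common to RNA polymerases I, II and III. By limma 0 of them passed on day 0 (0 at an unadjusted p under 0.05 as well), and all 5 were higher in knockout cells on day 3, with a median of 0.91. Of all genes 23.3% were called on day 0 and 26.5% were higher on day 3. Polr2l had 44.71, 49.25 and 49.99 TPM in knockout and 14.92, 17.66 and 17.53 TPM in control cells on day 3, without overlap. On day 0 it had 65.9, 57.28 and 59.37 TPM in knockout and 52.67, 60.75 and 52.51 TPM in control cells, and the groups overlapped. The day 3 difference was 1.47 ± 0.11 (limma adjusted p = 4.50e-09), and the average was 0.69 ± 0.06 in the macrophage and 0.73 ± 0.07 in the granulocyte course. Polr2f had 115.1, 127.55 and 141.85 TPM in knockout and 51.33, 58.73 and 53.72 TPM in control cells on day 3, a difference of 1.21 ± 0.10 (1.97e-08). On day 7 of the granulocyte course it had 98.43, 109.57 and 119.83 TPM in knockout and 54.88, 53.68 and 71.09 TPM in control cells, again without overlap, at 0.86 ± 0.13. Polr2f overlaps the antisense gene 1700088E04Rik. The libraries were made with a stranded kit, but no source used here states a strand setting for the counting. Whether reads of the pair were told apart is therefore unknown. The same holds for Polr2h, which overlaps Clcn2, Polr2j, which overlaps Lrwd1, and Polr2b, which overlaps Igfbp7, all on the other strand. Polr2k differed by 0.91 on day 3, Polr2e by 0.53 and Polr2h by 0.38. At day 5 Polr2l was higher by 0.45 in the macrophage course and by 0.53 in the granulocyte course, the second of which missed the threshold without control replicate 1 (0.29, adjusted p = 0.0588). Polr2f, higher by 0.28 on day 5 of the macrophage course, missed it without any 1 of its 6 libraries (0.0525 to 0.077), and by 0.43 in the granulocyte course, missed it without control replicate 1 or knockout replicate 2 (0.0608 to 0.0842).

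**Figure D2:**
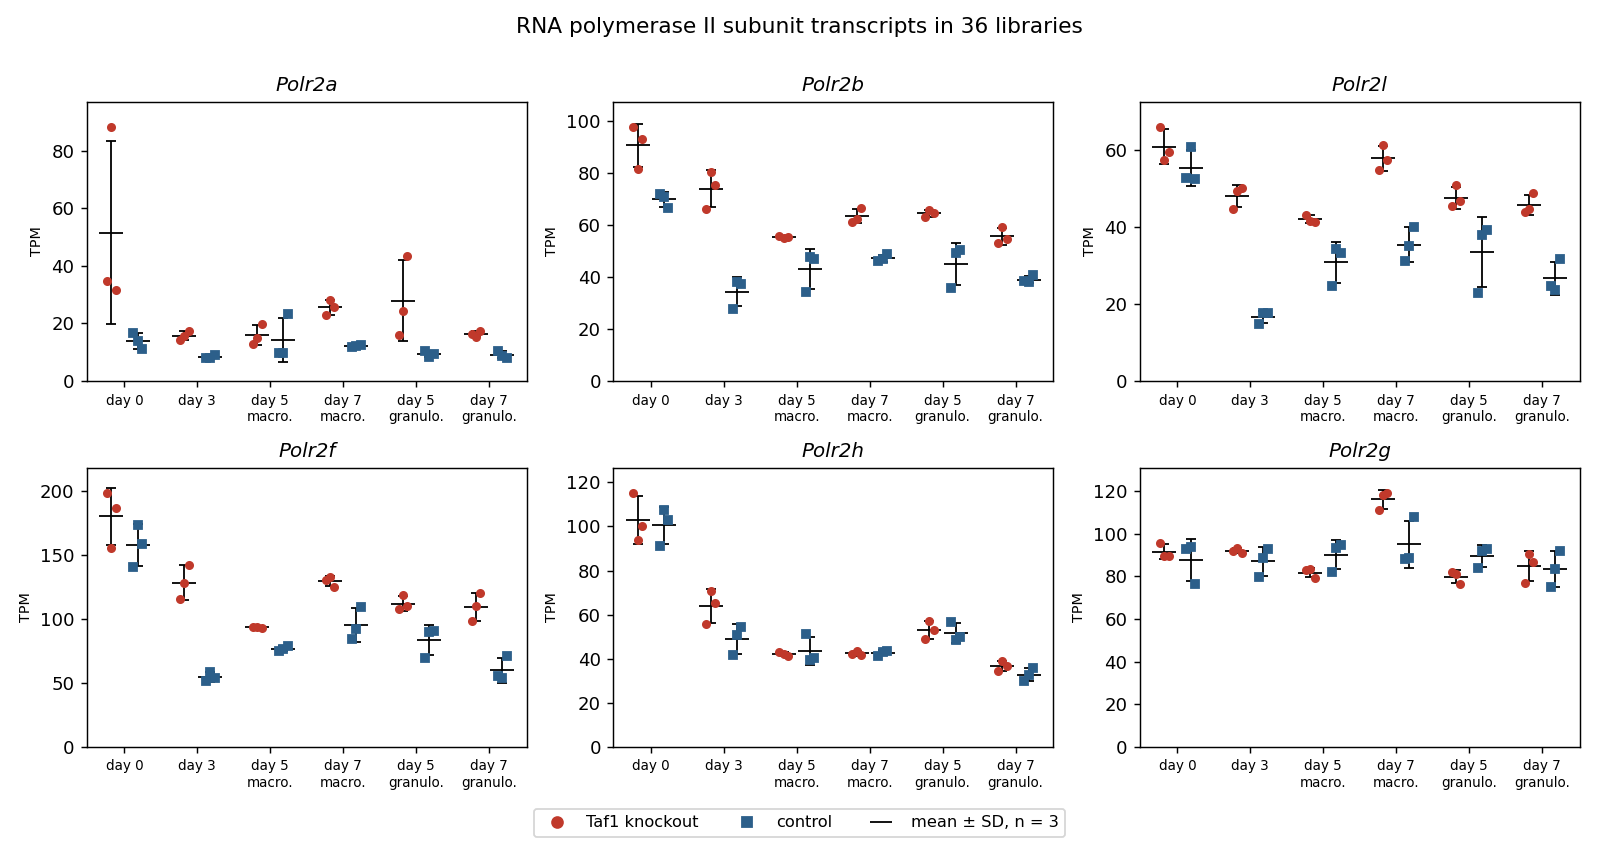
TPM (vertical axes, from 0) of 6 RNA polymerase II genes in the 36 libraries at 6 stages, Taf1 knockout as circles left of control as squares, with bars at the mean ± SD of 3 libraries. Polr2l and Polr2f separate on day 3 and not on day 0, Polr2a holds 3 libraries far above their groups, and Polr2g shows overlap at most stages.

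Levels of the polymerase genes spanned a wide range in control cells on day 0, although the core subunits are assembled in single copies. Polr2j was highest at 178 ± 4.86 TPM (SD, n = 3), followed by Polr2f at 157 ± 16.5 TPM. Polr2e at 102 ± 7.76 TPM and Polr2h at 101 ± 8.49 TPM differed by less than their SDs. Polr2a was the lowest of the 13 at 13.8 ± 2.78 TPM, and the next lowest was Polr2d at 54.4 ± 5.46 TPM. The largest knockout difference among them on day 0 was in Polr2a, and that on day 3 in Polr2l, at 55.3 ± 4.71 TPM in control cells on day 0. That level differed by less than the SDs from those of Polr2d, Polr2c (57.4 ± 5.25 TPM) and Polr2i (58.3 ± 4.60 TPM).

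Most general factor genes were higher too. Averaged over 4 days, 10 of 12 tested genes were higher and 0 lower in either course by limma (0 lower also at an unadjusted p under 0.05, as no average was negative), with medians of 0.31 and 0.33. Over all genes 27.9% were higher and 32.4% lower in the macrophage course and 33% and 26.1% in the granulocyte course, with medians of -0.02 and 0.03. Those that did not pass were Gtf2e2, the smaller TFIIE subunit, and Gtf2h2, a TFIIH core subunit, at 0.05 and 0.01 in the macrophage course.

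Gtf2b encodes TFIIB, which links TBP to the polymerase. It had 99.33, 91.4 and 96.38 TPM in knockout and 65.2, 64.87 and 55.01 TPM in control cells on day 0, and 102.07, 112.69 and 110.41 TPM in knockout and 67.63, 75.59 and 81.92 TPM in control cells on day 3. On day 5 of the macrophage course the libraries were close, at 91.19, 97.77 and 88.74 TPM in knockout and 86.91, 87.68 and 81.86 TPM in control cells. Knockout libraries lay above control libraries at all 6 stages, by a narrow margin on day 5. The differences were 0.63 ± 0.09 on day 0 (limma adjusted p = 2.48e-05), 0.53 ± 0.09 on day 3 (4.19e-05), 0.39 ± 0.09 on day 7 of the macrophage course and 0.33 ± 0.09 on day 7 of the granulocyte course, and day 5 missed the threshold in both (0.11 and 0.17). With median-of-ratios scaling the day 7 values were 0.23 and 0.12, the second past the threshold no longer (0.0665). Without knockout replicates 2 and 3 they were 0.26 (0.194) and 0.20 (0.353).

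TFIIA, which steadies TBP on DNA, is encoded by Gtf2a1 and Gtf2a2. Gtf2a1 had 28.49, 38.18 and 40.49 TPM in knockout and 15.48, 15.16 and 19.17 TPM in control cells on day 7 of the macrophage course, and 21.25, 25.25 and 25.86 TPM in knockout and 10.25, 11.73 and 13.08 TPM in control cells on day 7 of the granulocyte course. On day 0 it had 19.49, 20.83 and 20.31 TPM in knockout and 12.83, 11.77 and 9.58 TPM in control cells. The groups were apart at each of these stages and overlapped on day 5 of both courses. The average difference was 0.68 ± 0.08 (limma adjusted p = 3.87e-07) in the macrophage and 0.72 ± 0.10 (2.05e-06) in the granulocyte course. The day 3 call at 0.50 was lost without control replicate 1 or knockout replicate 2 (adjusted p of 0.0558 to 0.0813), and that of day 5 in the granulocyte course at 0.60 without control replicate 2 or 3 or knockout replicate 3 (0.0941 to 0.115). Gtf2a2 was higher on day 0, by 0.41, and on day 7 of the macrophage course, by 0.44, and averaged 0.26.

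TFIIH carries the helicases that open the promoter and the kinase of the polymerase tail. Gtf2h3, a core subunit, had 19.42, 19.18 and 17.86 TPM in knockout and 10.08, 9.82 and 9.96 TPM in control cells on day 7 of the macrophage course, and 13.25, 16.34 and 14.48 TPM in knockout and 6.62, 7.31 and 7.67 TPM in control cells on day 7 of the granulocyte course. It did not overlap between groups at any stage but day 0, and averaged 0.61 ± 0.07 (limma adjusted p = 1.43e-07) and 0.64 ± 0.06 (4.73e-08). Gtf2h1 averaged 0.42 and 0.46 and was higher on day 0 (0.58), day 3 (0.62) and day 7 (0.60 and 0.64), with day 5 values of -0.13 and -0.01 that did not pass. Without knockout replicates 2 and 3 its day 7 values were 0.35 (0.247) and 0.36 (0.186). Gtf2h4 and Gtf2h5 were higher on day 3, by 0.75 and 0.63. Of TFIIF, which escorts the polymerase, Gtf2f1 and Gtf2f2 were higher on day 3 by 0.68 and 0.46. Of TFIIE, which recruits TFIIH, Gtf2e1 was higher on day 3 (0.65) and on day 7 (0.40 and 0.52), and Gtf2e2 only on day 0 (0.35).

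**Figure D3:**
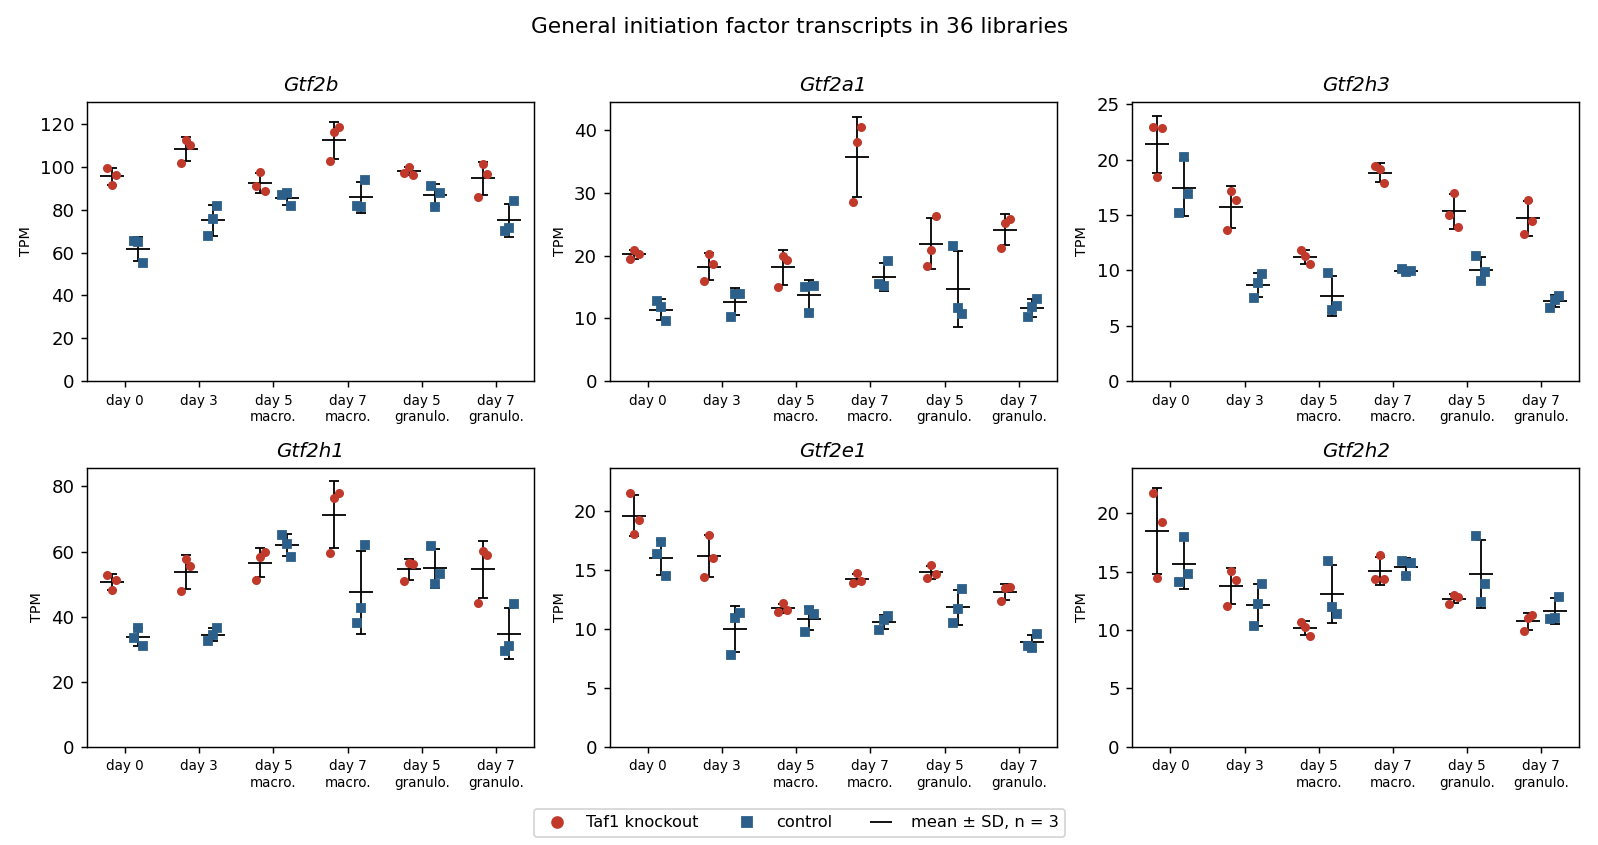
TPM (vertical axes, from 0) of 6 general factor genes in the 36 libraries at 6 stages, Taf1 knockout as circles left of control as squares, with bars at the mean ± SD of 3 libraries. Gtf2b and Gtf2h1 come close or overlap on day 5 and are apart on day 0 and day 3, Gtf2h3 is apart from day 3 on, and Gtf2h2 overlaps at most stages.

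Mediator genes moved in both directions. Averaged over 4 days, 14 of 30 genes were higher and 2 lower in the macrophage course, with a median of 0.09 (27.9% and 32.4% of all genes, median -0.02), and 18 were higher and 2 lower in the granulocyte course, with a median of 0.19 (33% and 26.1% of all genes, median 0.03). By module in the macrophage course, 3 of 8 head, 5 of 9 middle and 5 of 8 tail genes, the scaffold Med14 (0.32 ± 0.08) and 0 of 4 kinase module genes were higher (0 also at an unadjusted p under 0.05 by limma, all 4 averages being negative). By the granulocyte average 4 of 8 head, 6 of 9 middle and 6 of 8 tail genes, Med14 (0.38) and 1 of 4 kinase module genes were higher, and 1 of the 4 kinase module averages was negative. The 2 falls, Med11 and Med16, were the same in both courses, whose averages share the day 0 and day 3 libraries.

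Med11, a head subunit that meets the polymerase and TFIIH, had 24.96, 26.67 and 26.01 TPM in knockout and 35.77, 45.56 and 32.49 TPM in control cells on day 0. On day 5 it had 22.72, 26.3 and 24.64 TPM in knockout and 43.06, 40.73 and 42.86 TPM in control cells of the macrophage course, and 22.15, 26.1 and 27.04 TPM in knockout and 45.31, 47.57 and 43.37 TPM in control cells of the granulocyte course. Its knockout libraries lay below all control libraries at each of the 6 stages. The average difference was -0.50 ± 0.05 (limma adjusted p = 5.07e-08) and -0.49 ± 0.07 (2.12e-06). The smaller differences were lost without single libraries, on day 3 (-0.26) without control replicate 2 or 3 or knockout replicate 1 or 2 (adjusted p of 0.0512 to 0.155), and on day 7 of the granulocyte course (-0.34) without control replicate 3 or knockout replicate 1 (0.202 to 0.213). With median-of-ratios scaling the last was -0.55.

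Med16, a tail subunit, had 10.98, 12.66 and 11.63 TPM in knockout and 15.74, 16 and 16.26 TPM in control cells on day 0, and 5.92, 5.47 and 5.66 TPM in knockout and 9.11, 9.46 and 10.67 TPM in control cells on day 5 of the macrophage course. It lay below control without overlap at all stages but day 3, where it had 7.03, 7.26 and 7.63 TPM in knockout and 5.56, 6.81 and 7.29 TPM in control cells. The average difference was -0.37 ± 0.05 (limma adjusted p = 8.66e-07) and -0.23 ± 0.05 (0.000311). The day 7 granulocyte value of -0.30 was lost without control replicate 3 or knockout replicate 2 (adjusted p of 0.0508 to 0.0696), and was -0.49 with median-of-ratios scaling.

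Med21, a middle subunit paired with Med7, changed direction over time. It had 136.24, 111.81 and 124.86 TPM in knockout and 102.43, 87.51 and 74.34 TPM in control cells on day 0, and 91.68, 118.24 and 110.42 TPM in knockout and 52.97, 71.82 and 71.68 TPM in control cells on day 3. On day 7 of the granulocyte course it had 47.33, 32.66 and 38.62 TPM in knockout and 73.12, 77.25 and 57.94 TPM in control cells. Knockout libraries were above control without overlap at the first of these stages and below it at the last. The differences were 0.50 ± 0.14 (limma adjusted p = 0.0114), 0.70 ± 0.14 (0.000231) and -0.80 ± 0.15 (0.000245), with -0.35 and -0.48 on day 5 of the macrophage and granulocyte courses. The day 0 call was lost without control replicate 3 or knockout replicate 1 (0.0575 to 0.0806). On day 5 that of the macrophage course was lost without control replicate 1 or knockout replicate 2 or 3 (0.102 to 0.182) and with median-of-ratios scaling (-0.10, 0.505), and that of the granulocyte course without control or knockout replicate 1 (0.0527 to 0.0588). Without knockout replicates 2 and 3 the day 7 value was -0.53 (0.0812). Med21 overlaps Tm7sf3 on the other strand, and whether the counting told reads of the pair apart is unknown.

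Of the kinase module, Med12 and Med13 and their paralogues Med12l and Med13l, 0 were higher on day 0 or day 3 by limma (0 at an unadjusted p under 0.05 as well). Of all genes 13.1% were higher on day 0 and 26.5% on day 3, so a count of 0 among so few genes says little. Med12l, at most 3.64 TPM in any library, had 1.36, 1.21 and 1.44 TPM in knockout and 2.5, 3.24 and 3.51 TPM in control cells on day 3. On day 7 of the granulocyte course it had 1.85, 3.43 and 3.64 TPM in knockout and 0.58, 0.6 and 0.81 TPM in control cells. The groups were apart both times, in opposite directions, at -0.80 ± 0.12 (limma adjusted p = 1.45e-05) and 1.23 ± 0.16 (5.53e-06), the second of which was 0.78 (0.00773) without knockout replicates 2 and 3. Med12l spans P2ry12, P2ry13 and P2ry14 on the other strand, and its counts are uncertain for that reason. Med13l was lower on day 3 (-0.39) and on day 5 of the macrophage course (-0.50), and higher on day 7 of the granulocyte course (0.51). The first was lost without control replicate 1 or 3 or knockout replicate 1 or 3, the second without control replicate 1 or 3 and with median-of-ratios scaling (-0.27, adjusted p = 0.147), and the third without any 1 of its 6 libraries and with that scaling (0.32, 0.125); over the libraries left out the adjusted p reached at most 0.141. Med12 lies on chromosome X, 235268 bases before Taf1 in the GENCODE M21 annotation of mm10. It differed by 0.09 on day 0 and 0.02 on day 3, neither past the threshold, and was lower on day 5 of the macrophage course (-0.44), a call that was lost with median-of-ratios scaling.

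Med1, Med8, Med9 and Med24 also had calls in both directions. Med1, the middle subunit that binds nuclear receptors, differed by 0.28 on day 0, 0.26 on day 3, -0.29 on day 5 of the macrophage course and 0.35 on day 7 of the granulocyte course. Med8, of the head, differed by 0.23 on day 0, 0.25 on day 3, -0.26 on day 5 of the macrophage and -0.36 on day 5 of the granulocyte course. Med24, of the tail, differed by 0.42 on day 3 and -0.38 on day 5 of the macrophage course, and Med9, of the middle module, by -0.27 on day 5 and 0.21 on day 7 of the macrophage course. Each of the 4 falls on day 5 of the macrophage course missed the threshold with median-of-ratios scaling, at -0.05 (Med1), -0.01 (Med8), -0.15 (Med24) and -0.04 (Med9). Single libraries ended several of these calls: Med1 on day 0 without any but control replicate 1 (adjusted p of 0.0618 to 0.159), on day 3 without control replicate 1 or knockout replicate 2 or 3 (0.083 to 0.111), on day 5 without control or knockout replicate 3 (0.0562 to 0.112) and on day 7 without control replicate 1 or knockout replicate 2 or 3 (0.0665 to 0.0994). Med8 lost its call on day 0 without control replicate 2 or 3 or knockout replicate 1 or 3 (0.0748 to 0.196), on day 3 without control replicate 1 or knockout replicate 3 (0.051 to 0.0805) and on day 5 of the macrophage course without control replicate 1 (0.0627). Med9 lost that of day 7 without control replicate 1 or 2 or knockout replicate 2 or 3 (0.117 to 0.182).

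**Figure D4:**
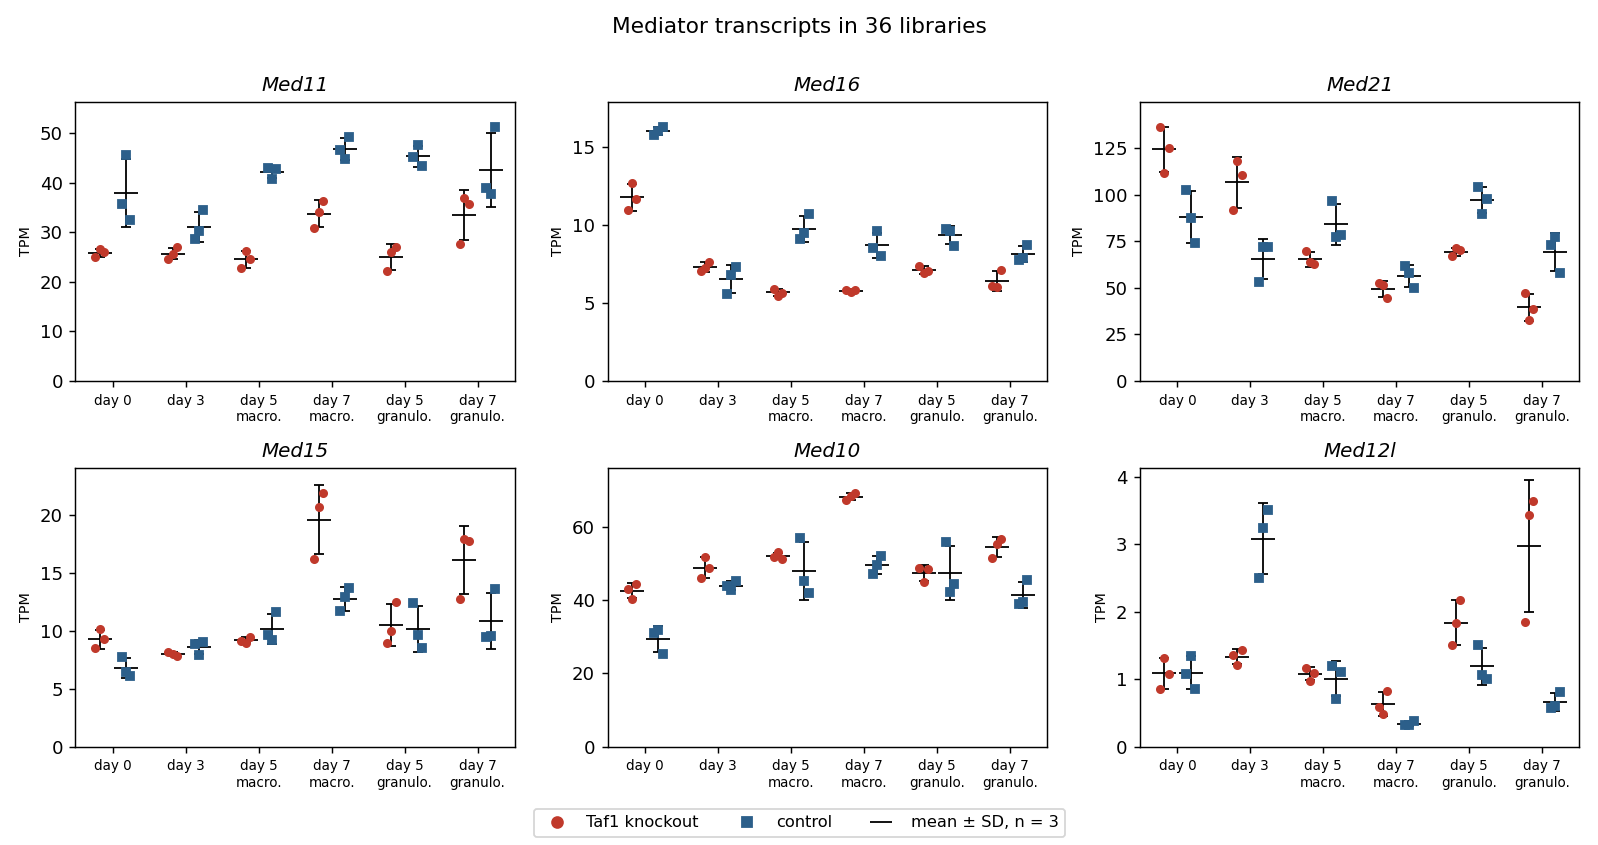
TPM (vertical axes, from 0) of 6 Mediator genes in the 36 libraries at 6 stages, Taf1 knockout as circles left of control as squares, with bars at the mean ± SD of 3 libraries. Med11 is lower in knockout libraries throughout, Med21 is higher on day 0 and day 3 and lower on day 7 of the granulocyte course, and Med12l stays under 4 TPM.

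The day 3 rise can be read beside the change over the first 3 days in each genotype, which uses the same libraries. In knockout cells 30 members fell and 0 rose from day 0 to day 3 by limma (35.9% and 22.8% of all genes, 58.8% in all, 1 rise at an unadjusted p under 0.05, and 21 falls and 5 rises with median-of-ratios scaling). In control cells 38 fell and 6 rose (39.6% and 33.3% of all genes, 73% in all). Of the 13 polymerase genes 12, all but Polr2a, had a higher value in knockout than in control cells, where all 13 were negative. So had 15 of 30 Mediator and 7 of 12 general factor genes. The knockout value was the lower one for 4 of 19 genes specific to RNA polymerases I and III and 1 of 6 polymerase II assembly factors. These counts are of direction alone, and some values were nearly equal. Those of Polr2g were 0.008 in knockout and -0.005 in control cells, and those of Polr2i -0.54 in knockout and -0.62 in control cells. The share over all genes was not computed. Polr2l changed by -0.34 in knockout and by -1.67 in control cells. Polr2f changed by -0.48 in knockout and by -1.51 in control cells. Polr2b changed by -0.29 in knockout and by -1.02 in control cells, and Polr2j by -0.27 in knockout and by -1.02 in control cells. Polr2a, raised in knockout cells already on day 0, changed by -1.49 in knockout and by -0.65 in control cells.

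The difference between the knockout effects of day 3 and day 0 passed for 20 members, 15 higher and 5 lower on day 3, against 32.3% of all genes (15% higher, 17.3% lower). Of the 15, 7 were polymerase genes. The smallest p-values were those of Polr2l (1.33 ± 0.16, limma adjusted p = 6.24e-06), Polr2f (1.02 ± 0.15, 5.56e-05) and Polr2j (0.74 ± 0.11, 9.25e-05). Without the structural RNA and histone genes the split was 14 higher and 8 lower. Between day 7 and day 0, 2 members differed in the macrophage course (11.8% of all genes, 7.04% higher and 4.75% lower), Polr2l at 0.56 ± 0.16 and Med21 at -0.68 ± 0.19, and between 0 and 5 did when single libraries were left out. In the granulocyte course 9 were higher and 1 lower (12.4% and 6.77% of all genes, 19.2% in all), led by Med21 at -1.30 ± 0.21 (adjusted p = 0.000191), Med12l at 1.23 ± 0.22 (0.000606) and Polr2e at 0.58 ± 0.14 (0.0051). This split was 7 higher and 7 lower with median-of-ratios scaling, which moved the median of all genes from 0.12 to 0.00, and 6 and 4 without the structural RNA and histone genes. It was 6 in all without control or knockout replicate 2 of day 0.

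**Figure D5:**
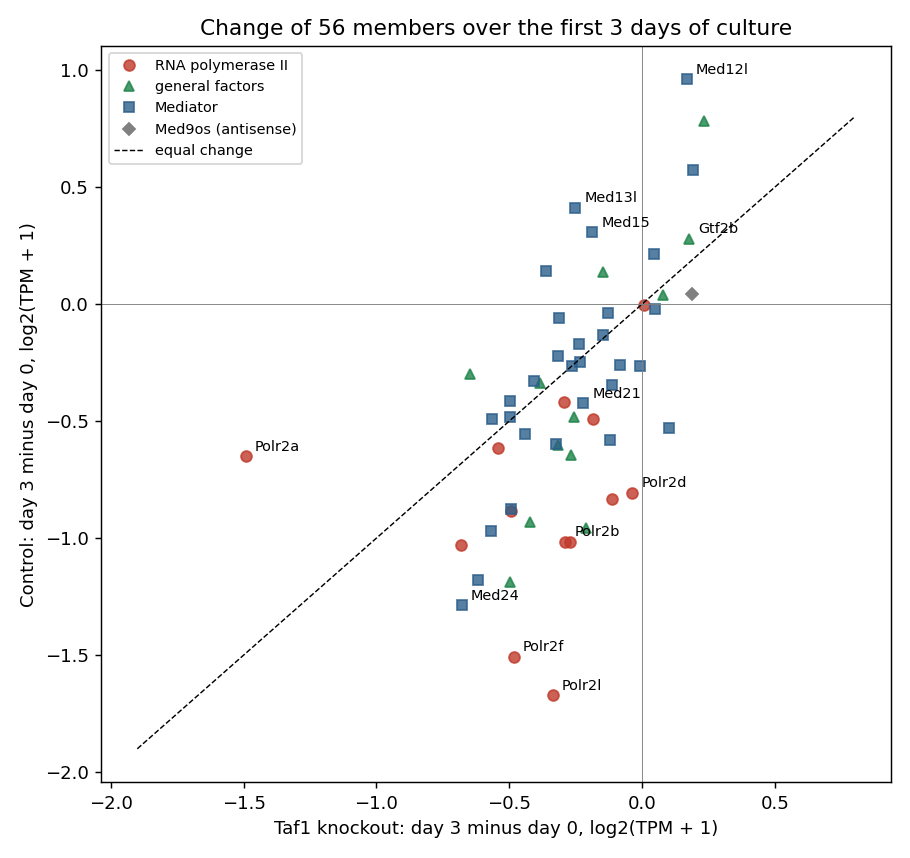
Change from day 0 to day 3 in log2(TPM + 1) for 56 members, Taf1 knockout cells on the horizontal and control cells on the vertical axis, with symbols by family and a dashed line of equal change. The polymerase genes except Polr2a lie to the right of the line, with Polr2l at -0.34 in knockout and -1.67 in control cells.

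Most called members were lower on day 7 than on day 0, stages that also differ in time in culture, cytokines and cell makeup, which cannot be told apart here. On day 7 of the macrophage course 11 members were higher and 29 lower than on day 0 in knockout cells (35.2% and 36.4% of all genes, 71.6% in all; 3 and 44 without structural RNA and histone genes). In the granulocyte course 4 were higher and 36 lower on day 7 (31.3% and 42.4% of all genes, 73.8% in all; 12 and 31 with median-of-ratios scaling). In control cells of the macrophage course 10 rose and 32 fell (33.6% and 39.8% of all genes, 73.5% in all). In those of the granulocyte course 4 were higher and 40 lower (28.6% and 47.3% of all genes, 76% in all; 10 and 31 with median-of-ratios scaling, which moved the median of all genes from -0.24 to 0.01). The largest control falls in the macrophage course were those of Polr2h (-1.22 ± 0.11), Med24 (-1.13 ± 0.10) and Gtf2a2 (-0.86 ± 0.11), and the largest rises those of Med15 (0.83 ± 0.11), a tail subunit, Med10 (0.74 ± 0.09), a middle subunit, and Gtf2a1 (0.51 ± 0.16). In the granulocyte course Polr2h (-1.59 ± 0.11), Gtf2h4 (-1.41 ± 0.10) and Polr2f (-1.38 ± 0.13) fell most, and Med15 (0.60 ± 0.15), Med10 (0.48 ± 0.10) and Gtf2b (0.28 ± 0.09) rose most. Med15 had 11.66, 12.89 and 13.68 TPM on day 7 of the macrophage course and 7.76, 6.45 and 6.11 TPM on day 0 in control cells. All of these passed the limma test, the highest adjusted p being 0.0097 for Gtf2b. The Gtf2b rise was lost without control replicate 3 of day 0 or of day 7 (0.0699 at most), and was 0.57 with median-of-ratios scaling and 0.05 (0.596) without structural RNA and histone genes.

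On day 7 in control cells, 28 members were higher and 1 lower in the macrophage than in the granulocyte course (36.3% and 10.3% of all 11269 genes, 46.7% in all). With the replicate number as a block, used because equally numbered libraries of the courses deviated together within each genotype, 33 were higher and 2 lower. This block was shared by knockout and control libraries of a number, which did not all deviate together on day 7. Replicate 2 of knockout and control correlated at -0.288 in the macrophage and -0.0914 in the granulocyte course. All results with the block carry that limit. The largest differences were those of Polr2f (0.66 ± 0.13), Gtf2h4 (0.60 ± 0.08) and Med19 (0.55 ± 0.11), and Med13l was lower (-0.35 ± 0.09). Polr2f had 84.04, 91.89 and 109.41 TPM in macrophage and 54.88, 53.68 and 71.09 TPM in granulocyte cultures of control cells. The count was 18 without granulocyte replicate 1, 19 without granulocyte replicate 2 or macrophage replicate 3, and 19 (17 higher, 2 lower) with median-of-ratios scaling, which moved the median of all genes from 0.21 to 0.04. The knockout effect itself differed between the courses for 0 of 55 members by limma (3.26% of all genes, 1.65% higher and 1.61% lower), 8 at an unadjusted p under 0.05, and 2, Med12l and Med13l, with the replicate block (0.0295 and 0.0465). Med12l came nearest at -0.94 ± 0.24 (adjusted p = 0.0581), followed by Med13l at -0.51 ± 0.13 (0.0626). Under the other settings between 0 and 2 members passed.

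Other genes of the transcription machinery were counted from lists that were also drawn up with earlier results known, and their counts are a description. Averaged over the macrophage course, 13 of 17 TFIID subunit genes were higher and 2 lower with a median of 0.32. Among the higher were Taf13 (1.29 ± 0.07) and Taf12 (1.09 ± 0.05), beside the fall of Taf1. Of 6 polymerase II assembly factors 4 were higher, led by Rpap1 (0.43 ± 0.05), Gpn2 and Rpap3. Of 19 genes specific to RNA polymerases I and III, 11 were higher and 1 lower, with Polr1e at 0.53 ± 0.07. Of 17 pausing and elongation factors 10 were higher and 1 lower, led by Hexim1 (1.09 ± 0.05), which holds P-TEFb inactive. Of 5 TFIIH subunits without a Gtf2h symbol, 2 were higher, Ercc3 (0.41 ± 0.05), the helicase that opens promoters, and Ercc2 (0.18). Of the 3 partners of the Mediator kinase module, only Ccnc, encoding cyclin C, was higher (0.28). Of 4 TBP regulators Btaf1 was higher (0.25) and Tbpl1 lower (-0.25), and of 5 C-terminal domain phosphatases Ctdp1 was higher (0.20) and Ctdsp1 (-0.27) and Ctdspl (-0.64) lower. The members, at 33 higher and 2 lower of 56 with a median of 0.19, and these lists stand against 27.9% higher and 32.4% lower over all genes, whose median was -0.02.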

How the data were processed

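Per the labels' protocols, total RNA was purified with the RNeasy Plus Mini Kit and libraries were made with the KAPA stranded kit. The authors deposited TPM per gene in 2 tables of 24411 symbols, of which 12 columns (day 0 and day 3) stand in each. The authors used RSEM (version not given) and DESeq2 1.38.3 with mm10, per the submitters' processing notes. TPM keeps no depth, so no counting interval is given.

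Differences of log2(TPM + 1) were tested with limma 3.58.1 (R 4.3.3) in 1 fit per course (24 libraries, day 0 and day 3 from the macrophage course) and 1 fit of day 7 for the lineage contrast, over genes of 1 TPM or more in at least 3 libraries, with Benjamini-Hochberg adjustment over all of them. Also tried were pseudocounts of 0.1 and 5, no filter, a minimum of 5 TPM, scaling by median of ratios (size factors of 0.8192 to 1.159), leaving out 199 structural RNA and histone genes, other sets of libraries in the fit, a replicate block and each library left out. The scripts were tested on simulated data. Coordinates are from GENCODE M21. Members and lists were chosen with earlier results of these data known. Described in full were Gtf2b, Polr2a, the 5 largest rises and falls of each course average, the 3 smallest p-values of each difference of effects, the 3 largest control changes and members with opposite calls. Of 123 list symbols 5 had no match.

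Equally numbered libraries of the 2 courses deviated together within each genotype (correlations of 0.231 to 0.771 at days 5 and 7), so these numbers may pair the courses. Not every library correlated best with its own number, as control macrophage replicate 1 on day 7 had 0.369 with granulocyte replicate 1 and 0.416 with replicate 2. Equal numbers of knockout and control correlated at 0.182 to 0.3 on day 5 of the macrophage course, the only stage where each library correlated best with its own number. They correlated at 0.0621 to 0.297 on day 5 of the granulocyte course and 0.00417 to 0.325 on day 3, and day 0 and day 7 included negative values. The labels do not say what a number marks.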

Additional observations from a re-analysis of the deposited data

Results flagged for a closer look

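The knockout effect differed between days for the following members by an interaction term in limma (adjusted p under 0.05), each value being the later effect minus the effect on day 0 in log2(TPM + 1). Day 3 minus day 0 gave higher effects for Polr2l 1.33, Polr2f 1.02, Polr2d 0.77, Gtf2f1 0.75, Polr2j 0.74, Polr2b 0.73, Polr2k 0.72, Gtf2h4 0.69, Med22 0.63, Med24 0.61, Med16 0.56, Gtf2h3 0.51, Med4 0.46, Med29 0.40 and Polr2e 0.39. It gave lower effects for Med12l -0.79, Med13l -0.66, Gtf2e2 -0.55, Med15 -0.49 and Med10 -0.38. The value of Gtf2h3 missed the threshold with the replicate block (adjusted p = 0.0535).

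Day 7 minus day 0 in the macrophage course gave Polr2l 0.56 and Med21 -0.68. Both missed the threshold without knockout replicates 2 and 3 of day 7. In the granulocyte course it gave higher effects for Med12l 1.23, Med7 0.77, Med22 0.67, Polr2f 0.67, Gtf2h3 0.65, Polr2l 0.63, Polr2e 0.58, Med23 0.54 and Med26 0.45, and Med21 -1.30. The value of Med26 missed the threshold with the replicate block. Med12l stays at 3.64 TPM or below in every library. No explanation of these differences was tested.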

How the results depend on the processing

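The counts of members called kept their size within 1.5 times under the other settings except as follows. With median-of-ratios scaling 23 passed on day 5 of the macrophage course, 22 on day 5 and 22 on day 7 of the granulocyte course, 6 for day 7 minus day 0 in the macrophage course, 19 between courses in controls, and 2 for the difference of effects between courses. Without structural RNA and histone genes 18 passed on day 7 of the macrophage course, 46 for day 3 against day 0 in knockout cells and 2 for the difference between courses. Fitted alone, day 7 of the granulocyte course gave 22. A pseudocount of 5 TPM and 1 fit over 36 libraries gave 1 each, and the replicate block 2, for the difference between courses, where the main count was 0. Without the libraries of high Polr2a, chosen after seeing the data, 1 passed for day 7 minus day 0 in the macrophage and 5 in the granulocyte course. Without knockout replicates 2 and 3 of day 7, also chosen so, 5 and 8 passed on day 7 of the macrophage and granulocyte courses, 0 and 2 for day 7 minus day 0, and 26 for day 7 against day 0 in knockout cells of the macrophage course. The last 2 settings leave fewer libraries, and otherwise the cause was not tested.

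Leaving out 1 library at a time, the members past the threshold numbered 7 to 18 on day 0, 29 to 35 on day 3, 12 to 16 on day 5 and 19 to 32 on day 7 of the macrophage course, 9 to 12 on day 5 and 20 to 33 on day 7 of the granulocyte course, 33 to 38 for the macrophage and 37 to 40 for the granulocyte course average, 15 to 20 for day 3 minus day 0 and 0 to 5 and 6 to 12 for day 7 minus day 0 in the macrophage and granulocyte courses, 21 to 30 in knockout and 36 to 42 in control cells from day 0 to day 3, 37 to 39 in knockout and 38 to 42 in control cells from day 0 to day 7 of the macrophage course, 35 to 41 in knockout and 38 to 44 in control cells of the granulocyte course, 18 to 37 between courses in controls and 0 to 1 for the difference of effects between courses. Values of single members that reversed were, with median-of-ratios scaling for day 7 against day 0 in control granulocyte cultures, Gtf2h5 (0.0728) and Med20 (0.00924). Without structural RNA and histone genes they were, for the same comparison, Med8 (-0.0361), in knockout macrophage cultures Gtf2b (-0.13), Gtf2h5 (-0.0033), Med28 (-0.0325), Med8 (-0.0365) and Polr2g (-0.0166), and in knockout granulocyte cultures Med10 (-0.0379) and Med11 (-0.0364).

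The replicate block gave 17 calls (5 higher, 12 lower) on day 5 of the macrophage course, where each library correlated best with its own number. Over all comparisons it ended 13 calls among 523 single values, which include Gtf2b and Polr2a at stages where they did not pass. At the other stages equal numbers of knockout and control correlated at -0.288 to 0.411, and not every sample correlated best with its own number. Fits of the groups alone were not run for the course averages and the difference between courses, which already use those groups. TPM gives no depth, so the precision of low members such as Med12l is unknown.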
